A study of Mus musculus with 8 samples.

Results

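Ribosome biogenesis factors are the nucleolar proteins that transcribe, modify, cut and fold ribosomal RNA and load it with ribosomal proteins. The 40 genes described here were taken from a list of nucleolar and pre-rRNA processing genes drawn up by function, with earlier results of these data known, and all 40 were found among the 19826 genes of the expression table. They were measured by poly(A) RNA-seq in regulatory T cells (Treg), a class of CD4+ lymphocyte that depends on Foxp3, a transcription factor, and holds immune responses in check. The question was what the loss of Pdpk1, which encodes the kinase PDK1 of the PI3K, AKT and mTOR pathway, does to Treg. The groups were 4 libraries from Foxp3 YFP-Cre/+ Pdpk1 +/+ mice (WT) and 4 from Foxp3 YFP-Cre/+ Pdpk1 FL/FL mice, labelled Pdpk1 KO. Mice of both groups were untreated C57BL/6 animals that carried the YFP-Cre allele, and the cells were sorted as CD4+ YFP+ from spleen and peripheral lymph nodes; the animals' age is not given in the sources used here. The Cre is driven from the Foxp3 locus, which is X-linked, so in a heterozygous female only part of the Treg carries active Cre, and the sort for YFP takes those cells. The labels do not say how many mice went into a library, and the p-values therefore reflect only how these libraries vary.

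A ribosome begins in the nucleolus with a long precursor RNA made by RNA polymerase I. Small nucleolar ribonucleoproteins (snoRNPs) modify that RNA, the small subunit processome cuts out the 18S part, and separate sets of factors build the large 60S and small 40S subunits before export to the cytoplasm. The pathway is known for its dependence on growth signals such as mTOR and on the transcription factor Myc, whose binding motif is the E-box CACGTG.

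The promoters of 4 members are shown because they hold that motif within the stretch printed and belong to genes that rose in these data, so they were chosen with the values known. RefSeq start sites (GRCm38.p6) gave a window of 250 bases before to 50 after the start for 35 of the 40 members. Each line runs from 120 bases before to 30 bases after the start, 5′ to 3′ on the gene's strand, with the E-box in capitals. They lie at chr6:125131763-125131912 (Nop2, plus strand), chr17:71616095-71616244 (Wdr43, plus), chr11:82908366-82908515 (Nle1, minus) and chr11:74897960-74898109 (Tsr1, plus).
Nop2: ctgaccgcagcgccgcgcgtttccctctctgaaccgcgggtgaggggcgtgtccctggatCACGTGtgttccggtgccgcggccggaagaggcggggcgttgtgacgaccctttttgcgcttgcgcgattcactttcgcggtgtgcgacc
Wdr43: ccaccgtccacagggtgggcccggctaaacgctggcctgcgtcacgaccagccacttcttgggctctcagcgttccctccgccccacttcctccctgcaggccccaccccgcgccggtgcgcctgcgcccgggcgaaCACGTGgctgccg
Nle1: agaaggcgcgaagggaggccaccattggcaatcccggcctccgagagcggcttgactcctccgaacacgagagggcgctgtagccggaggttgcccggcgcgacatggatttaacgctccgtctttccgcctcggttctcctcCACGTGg
Tsr1: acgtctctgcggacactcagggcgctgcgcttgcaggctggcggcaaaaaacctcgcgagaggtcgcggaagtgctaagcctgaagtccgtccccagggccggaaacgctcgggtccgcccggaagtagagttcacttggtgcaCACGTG

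In the 300-base windows, both strands searched, CACGTG occurred in 10 of the 35 members (28.6%), against 1133 of 9601 tested genes with a window (11.8%) and 7.15% of all 32851 windows. The 10 members were Ltv1, Mybbp1a, Nle1, Nop2, Pes1, Tsr1, Utp18, Utp20, Utp4 and Wdr43. In 8 of the 10 (80%) the motif lay after the start site, and in Nop2 (60 bases) and Utp18 (20 bases) before it. Among the 1133 tested genes with the motif, it lay after the start in 185 (16.33%). The ETS core CCGGAAG was found in 14 of 35 members (40%) and 21.1% of tested genes, and CTCGCGAG in 1 member, Tsr1 (2.86%), and 2.21% of tested genes; no matches of different motifs overlapped. These matches describe the letters of the windows only.

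Depth was similar in the 2 groups: 17448095 to 26299577 reads per library could be recovered from the values, which are read counts divided by a size factor (normalized counts). Pdpk1 itself stood at 1923 to 2600 normalized counts in WT and 1656 to 2506 in Pdpk1 KO (log2 change -0.17, limma adjusted p = 0.491). Which exons are floxed is not given in the sources used here, and this gene-level count does not check the labels; every direction is that of the libraries labelled Pdpk1 KO. Foxp3 ranged from 4418 to 6340 over all 8 libraries, but other Treg markers moved, with Ikzf2 lower and Il2ra higher in Pdpk1 KO. Macrophage markers were higher in Pdpk1 KO (9 of 16 tested) and cell cycle genes lower (8 of 20).

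All 40 members were abundant enough to be tested. Levels of 22 of the 40 rose in Pdpk1 KO, none fell, and 18 did not pass the test (limma on log2 of the normalized count plus 1, Benjamini-Hochberg adjusted p under 0.05 over 13847 genes). The background was 4.41% of all tested genes higher and 5.06% lower. The members' median log2 change was 0.37, or 1.29-fold, and the median of all tested genes was -0.01. Every one of the 40 estimates was above 0, from 0.07 for Bms1 to 0.71 for Wdr12, while 6796 of the 13847 tested genes (49.08%) were above 0. The changes were small, with 5 of the 40 members above 1.5-fold, against 8.55% of all tested genes. In 25 of the 40, all 4 Pdpk1 KO libraries lay above all 4 WT libraries, a separation seen in 7.06% of tested genes. The members were measured with less error than most genes (median standard error 0.107 against 0.175) at higher levels (median WT mean 1406 normalized counts against 422). Of the 10 members with an E-box in the window, 5 rose with a median log2 change of 0.36, and of the 25 with a window without one, 14 rose with a median of 0.35; this difference was not tested. In these bulk libraries, fewer cells of a type and less RNA per cell cannot be told apart.

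**Figure D1:**
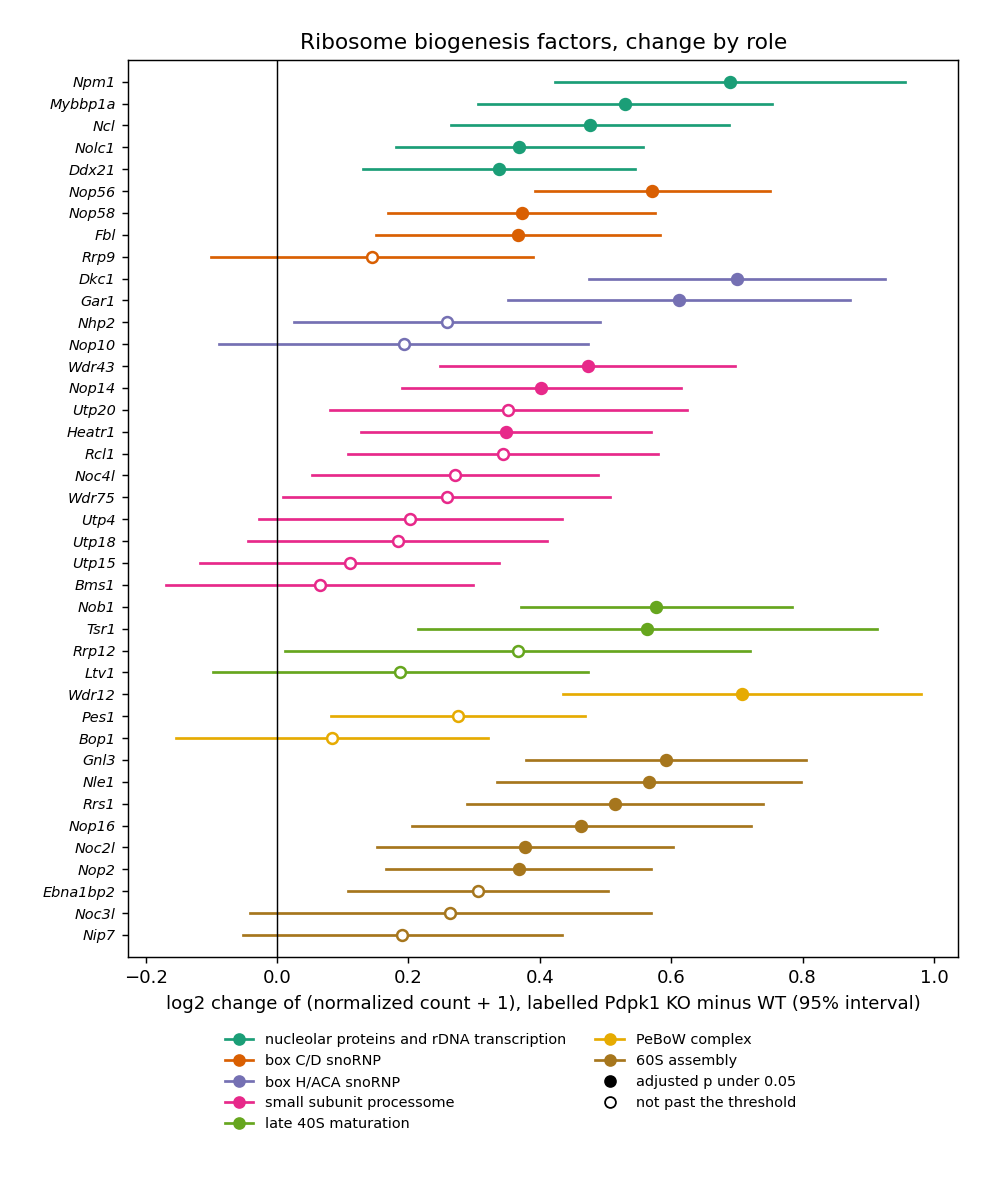
Log2 change of each of the 40 members (labelled Pdpk1 KO minus WT, 4 libraries each) with its 95% interval, coloured by role; filled points passed the adjusted p threshold of 0.05. All 40 points lie to the right of 0, and the 22 filled ones are spread over every role.

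Nucleolar proteins with roles in rRNA gene transcription were higher as a group, with all 5 of 5 past the threshold (median log2 change 0.48). Npm1 (chr11:33152287-33163206, minus strand, GRCm38), the nucleolar chaperone nucleophosmin, measured 17375, 19209, 23297 and 19685 normalized counts in WT replicates 1 to 4 and 27309, 38220, 30573 and 32489 in Pdpk1 KO. Every Pdpk1 KO library was above every WT library, by 1.61-fold on average (log2 change 0.69 ± 0.13 SE, adjusted p = 0.00229). Mybbp1a, a Myb-binding protein that acts on RNA polymerase I transcription, measured 5621, 4888, 4932 and 4444 in WT and 7789, 8031, 6641 and 6295 in Pdpk1 KO. Its groups did not overlap (log2 0.53 ± 0.11, adjusted p = 0.00447). Ddx21, an RNA helicase that links polymerase I transcription with rRNA processing, measured 6730, 6471, 6360 and 5361 in WT and 8231, 8340, 7792 and 7091 in Pdpk1 KO. It had the smallest change of the group, with the lowest Pdpk1 KO library above the highest WT library (log2 0.34 ± 0.10, adjusted p = 0.0398). Nucleolin (Ncl), a histone and RNA chaperone of the nucleolus, rose from 20085 ± 1340 to 27925 ± 1600 (SD, n = 4; adjusted p = 0.00613). Nolc1, a snoRNP chaperone, rose from 2488 ± 126 to 3215 ± 211 (adjusted p = 0.0149). Levels per kilobase used the longest annotated transcript with a consensus coding sequence (CCDS) tag, which was 1633 bases for Npm1, 1197 for Fbl and 8202 for Ncl. On that length Npm1 was the highest of the 40 members, at 12181 normalized counts per kb in WT, followed by Fbl at 3400 and Ncl at 2449. A shorter transcript would give a higher value, so this order depends on the length chosen. Which transcripts these cells use was not checked. Npm1 has processed copies elsewhere in the genome, and how reads shared with such copies were counted is not given in the sources used here.

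Of the 4 box C/D snoRNP proteins, 3 rose and Rrp9 did not pass (median 0.37). The 3 that rose, Fbl, Nop56 and Nop58, are core proteins of the particles that place 2′-O-methyl groups on rRNA. Nop56 (chr2:130274430-130279313, plus strand), a core scaffold protein, measured 2701, 2452, 2546 and 2663 in WT and 3904, 3932, 3607 and 3951 in Pdpk1 KO. This was the smallest adjusted p of all members, with all Pdpk1 KO libraries well above WT (log2 0.57 ± 0.08, 1.49-fold, adjusted p = 0.000454). Nop58, its partner scaffold, measured 2445, 2695, 3041 and 2752 in WT and 3288, 3911, 3442 and 3501 in Pdpk1 KO, without overlap (log2 0.37 ± 0.10, adjusted p = 0.0216). Fibrillarin (Fbl), the methyltransferase of the complex, rose from 4069 ± 249 to 5275 ± 714 (adjusted p = 0.0326), and its Pdpk1 KO replicate 2 was far above the other 3. Rrp9, which binds the U3 snoRNP that guides early cuts, measured 1319, 1568, 1317 and 1365 in WT and 1536, 1598, 1266 and 1784 in Pdpk1 KO. Its lowest library of all 8 was a Pdpk1 KO library, and the groups overlapped (log2 0.14, 95% interval -0.10 to 0.39, adjusted p = 0.507).

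The 4 box H/ACA snoRNP proteins, which convert uridine in rRNA to pseudouridine, were split, with Dkc1 and Gar1 higher and Nhp2 and Nop10 not past the threshold (median 0.44). Dkc1 (chrX:75095854-75109777, plus strand), the pseudouridine synthase dyskerin, measured 1751, 1930, 2114 and 1944 in WT and 2954, 3689, 3233 and 2747 in Pdpk1 KO. All 4 Pdpk1 KO libraries were above WT (log2 0.70 ± 0.11, 1.62-fold, adjusted p = 0.000545). Gar1, which helps the complex release its product, measured 939, 799, 929 and 902 in WT and 1260, 1682, 1167 and 1391 in Pdpk1 KO, also without overlap (log2 0.61 ± 0.12, adjusted p = 0.00462). Nop10, a small protein that supports the active site, measured 1344, 1534, 1821 and 1677 in WT and 1580, 2321, 1600 and 1833 in Pdpk1 KO. Pdpk1 KO replicate 2 was well above the WT range, replicate 4 barely so, and the other 2 lay within it (log2 0.19, 95% interval -0.09 to 0.47, adjusted p = 0.424). Nhp2, an RNA-binding subunit, had a log2 change of 0.26 (adjusted p = 0.167). Within a library the ratio of Dkc1 to Nop10 does not depend on the size factor. It was 1.30, 1.26, 1.16 and 1.16 in WT and 1.87, 1.59, 2.02 and 1.499 in Pdpk1 KO, without overlap. Of the 6 pairs in this complex, 3 had ratios that did not overlap between the groups. The other 3, such as Dkc1 to Gar1 (2.18 ± 0.234 and 2.32 ± 0.337), did overlap. Pairs share genes, so these ratios follow from the changes of single members. No share of separated ratios over other gene pairs was computed as a background, here or for the other complexes. In the box C/D core (Fbl, Nop56 and Nop58) all 3 ratios overlapped, with a mean for Fbl to Nop56 of 1.58 ± 0.152 in WT and 1.37 ± 0.174 in Pdpk1 KO.

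The small subunit processome, the large assembly that frees the 18S rRNA, had the lowest share past the threshold, 3 of 11 (median 0.27). Differences between roles were not tested. Wdr43 (chr17:71615895-71659031, plus strand), a subunit of its UtpA module, measured 2693, 2449, 1939 and 2262 in WT and 3363, 3370, 2970 and 3189 in Pdpk1 KO. The groups did not overlap (log2 0.47 ± 0.11, adjusted p = 0.0097). Nop14, a factor needed to make 18S rRNA, measured 1177, 1131, 1022 and 970 in WT and 1358, 1450, 1434 and 1427 in Pdpk1 KO. Its Pdpk1 KO libraries lay close together and above WT (log2 0.40 ± 0.10, adjusted p = 0.0182). Heatr1, the largest UtpA subunit, rose from 2052 ± 174 to 2618 ± 295 (adjusted p = 0.047). Bms1, a GTPase of the assembly, measured 2546, 2461, 2746 and 2208 in WT and 2721, 2686, 2917 and 2134 in Pdpk1 KO. The lowest of its 8 libraries was a Pdpk1 KO library, and it had the smallest change of all 40 members (log2 0.07, 95% interval -0.17 to 0.30, adjusted p = 0.785). The other 7 did not pass. Noc4l (0.27, adjusted p = 0.117) and Rcl1 (0.34, adjusted p = 0.0654) had groups without overlap. Utp20 (0.35), Wdr75 (0.26), Utp4 (0.20), Utp18 (0.18) and Utp15 (0.11) had groups that overlapped. The ratio of Utp15 to Wdr43, both UtpA subunits, was 0.45, 0.49, 0.59 and 0.47 in WT and lower in each Pdpk1 KO library, at 0.40, 0.41, 0.41 and 0.34. It changed most of the 10 UtpA pairs, of which 3 did not overlap between the groups and the other 7 did.

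Of the 4 factors of late 40S maturation, Nob1 and Tsr1 rose, and Ltv1 and Rrp12 did not pass (median 0.47). Nob1 (chr8:107412486-107425051, minus strand), the endonuclease that makes the final cut of 18S rRNA, measured 1338, 1261, 1243 and 1152 in WT and 1718, 2027, 1783 and 1931 in Pdpk1 KO. The groups were far apart for the spread within them (log2 0.58 ± 0.10, adjusted p = 0.00131). Tsr1, a GTPase-like assembly factor, measured 991, 789, 552 and 609 in WT and 1221, 964, 967 and 1105 in Pdpk1 KO. WT replicate 1 was above both Pdpk1 KO replicates 2 and 3, so the groups overlapped although the test was passed (log2 0.56 ± 0.16, adjusted p = 0.0419). Tsr1 shares 1240 of its exon bases (32.3%) with Srr on the other strand, and whether the counting used strand is not given in the sources used here. Ltv1, an export adaptor of the pre-40S particle, measured 845, 785, 888 and 797 in WT and 896, 1113, 734 and 1080 in Pdpk1 KO. The lowest library was again a Pdpk1 KO library (log2 0.19, 95% interval -0.10 to 0.47, adjusted p = 0.448). Rrp12, an export factor, varied widely between libraries, at 744.5 ± 118 in WT and 972.1 ± 249 in Pdpk1 KO (adjusted p = 0.2).

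The 3 proteins of the PeBoW complex, which joins 60S precursors for processing of the internal spacer, moved unequally: Wdr12 rose, and Pes1 and Bop1 did not pass. Wdr12 (chr1:60069785-60098645, minus strand) measured 612, 552, 664 and 554 in WT and 1040, 1143, 830 and 899 in Pdpk1 KO. Its change was the largest of the 40 members (log2 0.71 ± 0.13, 1.63-fold, adjusted p = 0.00225). Per kilobase of its longest CCDS-tagged transcript (10012 bases) it was the lowest of them in WT, at 59.5 normalized counts per kb. That rank also depends on the length chosen. Pes1 measured 2004, 1949, 2225 and 2132 in WT and 2706, 2571, 2315 and 2471 in Pdpk1 KO. Its groups did not overlap, but the test was missed (log2 0.28 ± 0.09, adjusted p = 0.0729). Bop1 measured 1950, 2150, 1803 and 1562 in WT and 2003, 2164, 1968 and 1746 in Pdpk1 KO, with the groups largely on top of each other (log2 0.08, 95% interval -0.15 to 0.32, adjusted p = 0.716). There were 3.19, 3.89, 2.72 and 2.82 counts of Bop1 for each count of Wdr12 in WT, and 1.93, 1.89, 2.37 and 1.94 in Pdpk1 KO, again without overlap. The ratio of Pes1 to Wdr12 did not overlap either, while that of Pes1 to Bop1 did (1.13 ± 0.206 and 1.28 ± 0.119).

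Among the 9 other factors of 60S assembly, 6 rose (median 0.38). Gnl3 (chr14:31012433-31019152, minus strand), the nucleolar GTPase nucleostemin, measured 992, 970, 871 and 985 in WT and 1579, 1427, 1339 and 1417 in Pdpk1 KO. Every Pdpk1 KO library was well above the highest WT library (log2 0.59 ± 0.10, 1.51-fold, adjusted p = 0.00136). Nle1, a cofactor of the remodelling enzyme Mdn1, measured 734, 826, 683 and 842 in WT and 1159, 1208, 1113 and 1077 in Pdpk1 KO, without overlap (log2 0.57 ± 0.11, adjusted p = 0.00349). Rrs1, which brings in the 5S ribonucleoprotein, rose from 1279 ± 58.8 to 1838 ± 228 (adjusted p = 0.00564). Nop16 rose from 742.2 ± 46.2 to 1030 ± 147 (adjusted p = 0.0245), and the rRNA methyltransferase Nop2 from 1538 ± 119 to 1982 ± 108 (adjusted p = 0.0223). Noc2l rose from 2894 ± 259 to 3770 ± 471 (adjusted p = 0.0351), and 20.9% of its exon length lies under Samd11 on the other strand. Nip7, a binder of the pre-60S particle, measured 900, 1151, 1038 and 1081 in WT and 1015, 1254, 1235 and 1255 in Pdpk1 KO. Pdpk1 KO replicate 1 fell among the WT libraries and the other 3 lay above them (log2 0.19, 95% interval -0.05 to 0.43, adjusted p = 0.357). Ebna1bp2 sat at the edge of the threshold (log2 0.31 ± 0.09, adjusted p = 0.0509) without overlap, and Noc3l had a log2 change of 0.26 (adjusted p = 0.301).

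**Figure D2:**
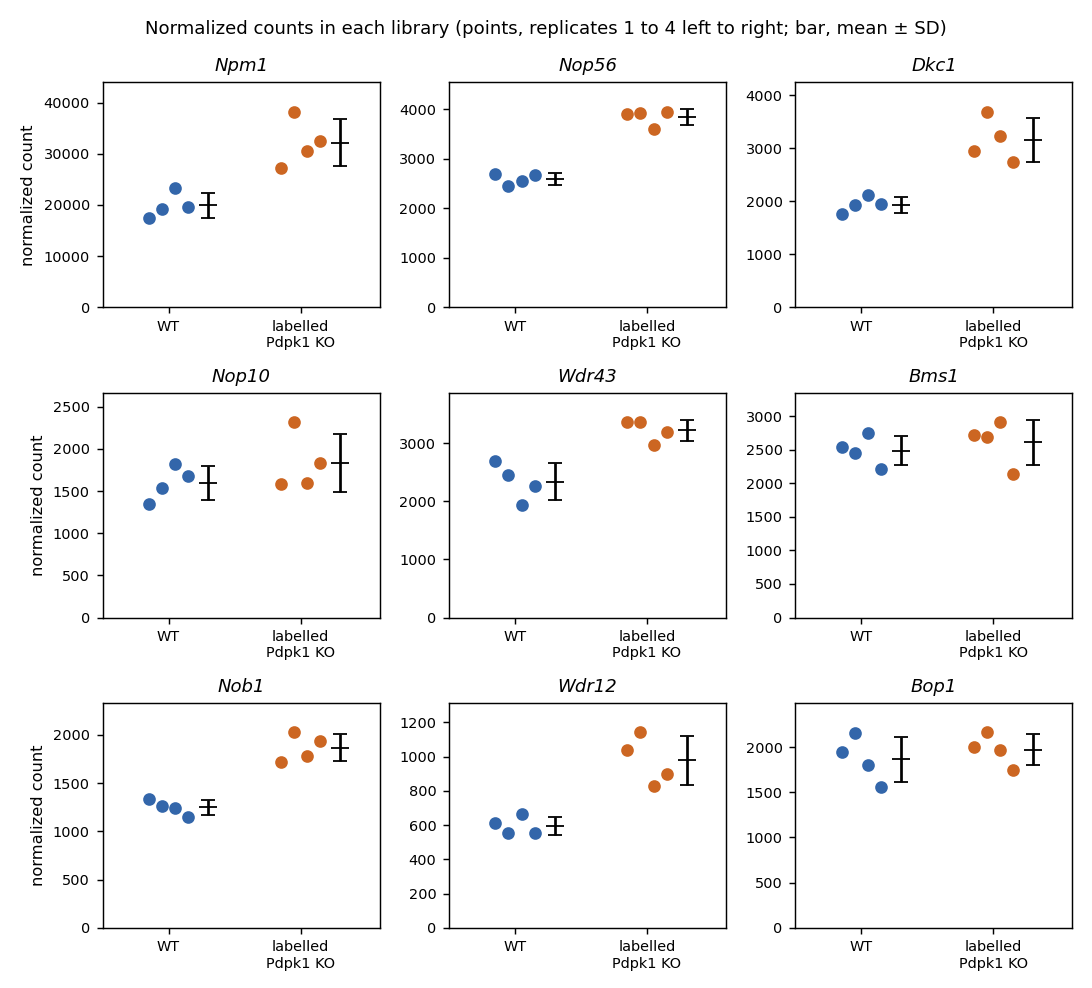
Normalized counts of 9 members in each library (points, replicates 1 to 4 from left to right; bar, mean ± SD of 4 libraries; axes start at 0). The groups are apart for Npm1, Nop56, Dkc1, Wdr43, Nob1 and Wdr12 and overlap for Nop10, Bms1 and Bop1.

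The 22 calls were not equally firm when single libraries were left out. In all 8 such fits, 13 stayed past the threshold: Ncl, Npm1, Nolc1, Mybbp1a, Nop56, Dkc1, Gar1, Wdr43, Nob1, Wdr12, Rrs1, Gnl3 and Nle1, with a highest adjusted p of 0.0466 (Nolc1). The other 9 were lost in at least 1 fit. Fbl and Nop58 were lost without WT replicate 1, 2 or 4 or Pdpk1 KO replicate 2 or 3 (adjusted p up to 0.0995 and 0.0721). Heatr1 was lost without WT replicate 2, 3 or 4 or Pdpk1 KO replicate 1 or 2 (up to 0.144). Ddx21 and Noc2l were lost without any of WT replicates 2 to 4 or Pdpk1 KO replicates 1 to 3 (up to 0.135 and 0.119). Tsr1 was lost in every fit other than the one without WT replicate 1 (up to 0.128). Nop2 was lost without WT replicate 2 or 3 or Pdpk1 KO replicate 1 or 3 (up to 0.0693), and Nop14 without WT replicate 3 or 4 or Pdpk1 KO replicate 3 (up to 0.0688). Nop16 was lost without WT replicate 3 or Pdpk1 KO replicate 2 or 4 (up to 0.0812). Ebna1bp2 gained a call without Pdpk1 KO replicate 3 (adjusted p = 0.045), Rcl1 without Pdpk1 KO replicate 1 (0.0408) and Utp20 without Pdpk1 KO replicate 4 (0.0451). All 40 estimates stayed above 0 in each of these 8 fits.

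The libraries differed in how far their members moved. Reads on the 40 members made up 0.542, 0.499, 0.498 and 0.493% of recovered reads in WT replicates 1 to 4 and 0.666, 0.685, 0.615 and 0.623% in Pdpk1 KO. The mean was 0.508 ± 0.0228% in WT and 0.647 ± 0.0339% in Pdpk1 KO (SD, n = 4), a ratio of 1.27, and the lowest Pdpk1 KO library was above the highest WT library. Pdpk1 KO replicate 2 was the highest of the 8 libraries for 24 of the 40 members, and WT replicate 4 the lowest for 15. The median member stood 0.44 above the WT mean (log2) in Pdpk1 KO replicate 2 and 0.39, 0.33 and 0.34 above it in replicates 1, 3 and 4.

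Markers of macrophages and monocytes moved with the groups. Of 20 markers, 16 were tested and 9 were higher in Pdpk1 KO, and their summed level ran from 382 to 2091 normalized counts in WT and from 2025 to 6534 in Pdpk1 KO, highest in Pdpk1 KO replicate 2. Some were at 0 in single libraries: Mertk, Fcgr1, Spic, Marco, Cd163, Siglec1 and Timd4 in WT replicate 1, Fcgr1, Spic, Marco, Cd163 and Timd4 in WT replicate 3, Mertk in WT replicate 4, and Fcgr1 and Marco in Pdpk1 KO replicate 4. Siglec1 was no higher in Pdpk1 KO (3.29 to 10.2) than in WT (0 to 10.5), and Vcam1 ran from 74.4 to 199 in WT and from 173 to 1110 in Pdpk1 KO. With the mean of these markers as a covariate, 4 of the 22 members stayed past the threshold (Nop56, Wdr12, Nob1 and Gnl3) and the median log2 change was 0.33. Without the 3 libraries highest in these markers (WT replicate 2 and Pdpk1 KO replicates 2 and 3), Nop56 and Gnl3 stayed past the threshold and the median was 0.37, from 3 libraries against 2. Cell cycle genes went the other way: 8 of 20 were lower in Pdpk1 KO, none was higher, their median log2 change was -0.98, and their summed level was 15489 to 22880 in WT and 11121 to 13621 in Pdpk1 KO. With the mean of the cell cycle genes as a covariate, 10 members were past the threshold and the median was 0.50. These were 9 of the 22 members and Utp20, which had not passed before. Calls also became fewer over all tested genes, of which 611 were higher in the main test. That number was 202 with the macrophage covariate, 239 with the cell cycle covariate and 167 without the 3 libraries. Each covariate itself differed between the groups, and the part of either marker set in the members' change was not tested. Of B cell markers, Cd79b was lower (300 to 469 in WT, 101 to 195 in Pdpk1 KO, adjusted p = 0.00407) and Cd79a, at 36.5 to 117 over all 8 libraries, did not pass. Ms4a1 was at 0 in 6 libraries, and the list summed to 364 to 537 in WT and 166 to 305 in Pdpk1 KO. Also lower was 1 of 4 tested CD8 T and NK cell markers (725 to 867 and 477 to 725). Of the dendritic and the erythroid and platelet markers, 1 each was tested and neither passed. Of 7 Treg markers, Il2ra was higher, at 15734 ± 914 in WT and 24420 ± 2591 in Pdpk1 KO (log2 0.63, limma adjusted p = 0.00114). Ikzf2 was lower, at 9041 ± 940 in WT and 4116 ± 379 in Pdpk1 KO (log2 -1.13, limma adjusted p = 4.45e-06). The other 5 did not pass. The median log2 change of the 7 was -0.27, and 5 of the 7 estimates were below 0.

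**Figure D3:**
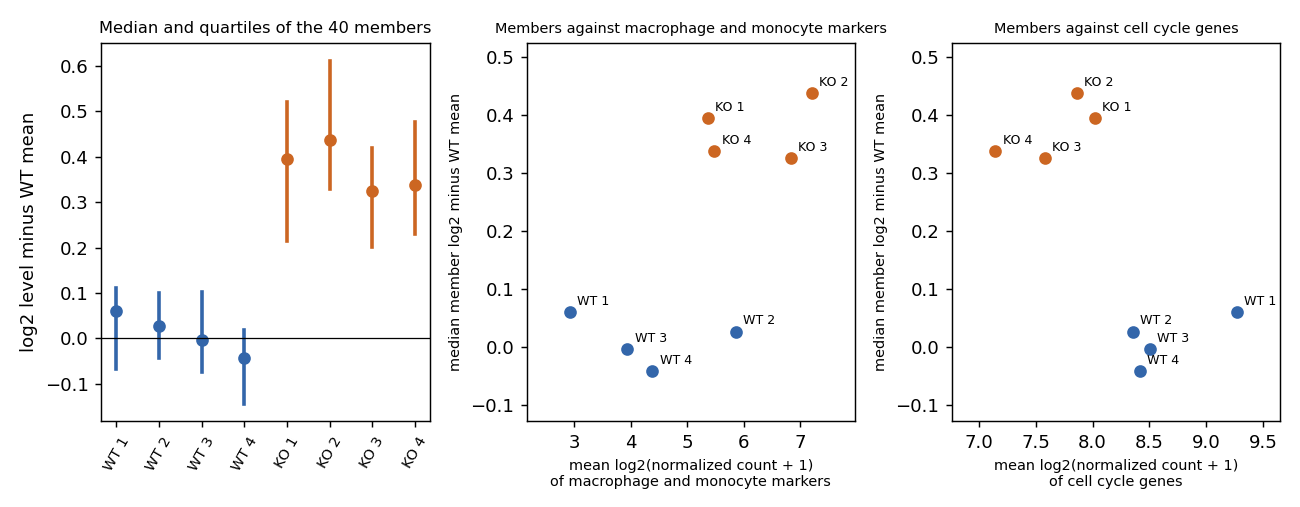
Left, median and quartiles of the 40 members in each library (log2 level minus the WT mean); middle and right, that median against the mean log2(normalized count + 1) of macrophage and monocyte markers and of cell cycle genes, 1 point per library (blue WT, orange labelled Pdpk1 KO). The 4 Pdpk1 KO medians lie between 0.33 and 0.44 and the WT medians between -0.04 and 0.06, at marker levels that also differ.

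Other genes of the pathway had lower medians than the members. They were taken from lists by function, like the members with earlier results of these data known. Together 19 of 120 rose and none fell (median log2 change 0.20), against 22 of the 40 members. Of all tested genes, 4.41% were higher and 5.06% lower. The lists share no gene with the members. Of 43 other processome and 40S factors, 6 rose (median 0.15), among them the processome protein Utp25, called Diexf in the annotation (790 ± 117 to 1246 ± 122, adjusted p = 0.00357), Utp14a (log2 0.40, adjusted p = 0.0161) and Aatf (0.43, adjusted p = 0.0171). Of 51 other 60S factors, 11 rose (median 0.23), led by Nol8 (1283 ± 95.7 to 1791 ± 176, adjusted p = 0.00784), Nop53 (16762 ± 1450 to 22648 ± 673, adjusted p = 0.00933) and Rsl1d1 (0.40, adjusted p = 0.00962). Of 10 snoRNP assembly factors, Naf1, which delivers dyskerin to new H/ACA RNAs, was past the threshold (532 ± 67.5 to 831 ± 218, adjusted p = 0.0472) with overlapping groups. Of 16 genes of the RNA exosome and pre-rRNA trimming, 1 rose (6.25%), a share near that of all tested genes, and the list's median was 0.09. It was the 5′ exonuclease Xrn2 (3596 ± 537 to 4981 ± 543, adjusted p = 0.0151). Naf1 lost its call in 6 of the 8 fits without a library (all but those without WT replicate 1 or Pdpk1 KO replicate 3; adjusted p up to 0.128). Aatf lost its call without Pdpk1 KO replicate 2 (0.0596) and Xrn2 without WT replicate 3 (0.0506). The count over the 120 fell to 12 without WT replicate 2 or 3, 10 without WT replicate 4, 8 without Pdpk1 KO replicate 2 and 11 without Pdpk1 KO replicate 3. In those fits 2.81 to 3.62% of all tested genes were higher.

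Cytosolic ribosomal proteins, the cargo that these factors assemble, had a median log2 change of 0.45 with 19 of 78 past the threshold. That count depended on single libraries: it was 3 without Pdpk1 KO replicate 2 or 3, 6 without Pdpk1 KO replicate 4, 4 without WT replicate 2, 5 without WT replicate 1 or 4, 33 without WT replicate 3 and 57 without Pdpk1 KO replicate 1. It was 9 after quantile normalization, 49 with DESeq2 and 0 with either marker covariate. Of all tested genes, 3.05% were higher without Pdpk1 KO replicate 2, 2.85% without replicate 3 and 4.25% without replicate 1. That share was 4.53% after quantile normalization, 6.14% with DESeq2, 1.46% with the macrophage covariate and 1.73% with the cell cycle covariate. The median of the cytosolic ribosomal proteins was 0.16 after quantile normalization, 0.18 with the macrophage covariate and -0.04 with the cell cycle covariate. It was 0.34 without the 3 libraries. Mitochondrial ribosomal proteins, built by another machinery, had a median of 0.04 with 1 of 76 past the threshold (Mrps5, log2 0.36, adjusted p = 0.0329). That count was 0 in 7 of the 8 fits without a library, 3 in the one without Pdpk1 KO replicate 1, and 0 with either covariate, where the cell cycle covariate gave 1 lower. Differences between the lists were not tested. Myc, from the list of genes named by rule, measured 3782, 3910, 3549 and 3772 in WT and 9819, 8965, 8613 and 7838 in Pdpk1 KO (log2 1.23 ± 0.09, adjusted p = 1.27e-06).

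**Figure D4:**
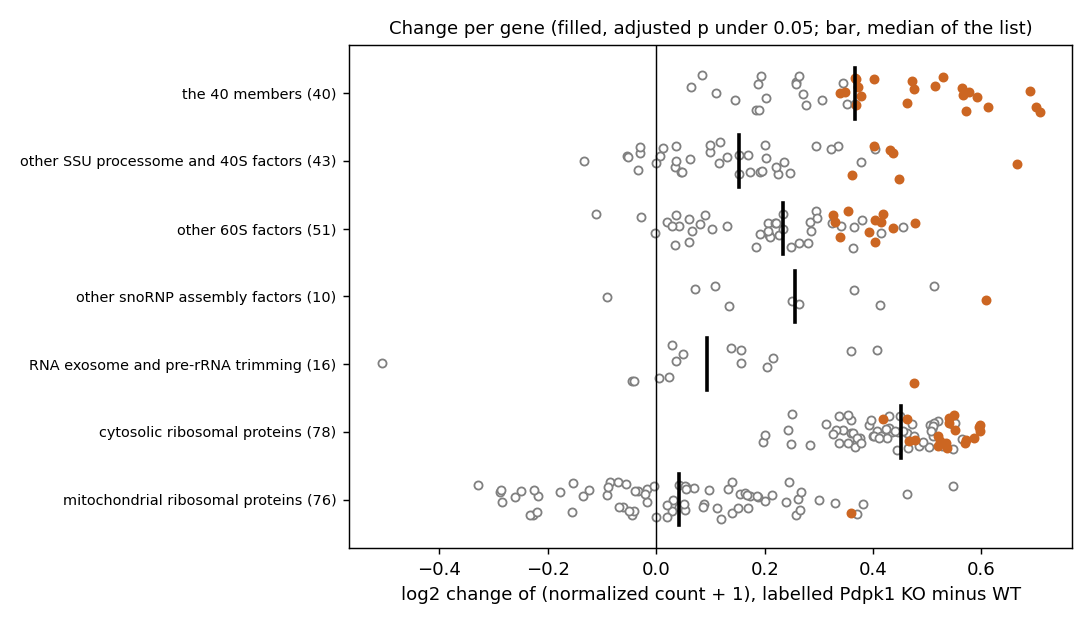
Log2 change per gene (labelled Pdpk1 KO minus WT) in the 40 members and 6 lists of other genes, with the number tested in brackets; filled points passed the threshold and the bar is the median of the list. The medians are 0.37 for the members, 0.15, 0.23, 0.26 and 0.09 for the other pathway lists, 0.45 for cytosolic and 0.04 for mitochondrial ribosomal proteins.

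A further feature that the choice of genes did not use is the small nucleolar RNAs (snoRNAs) annotated inside the gene bodies of some members. Whether each lies in an intron was not checked. In the GENCODE M21 annotation, 7 of the 40 (17.5%) hold at least 1 snoRNA on their own strand, 21 in all, against 222 of the 13847 tested genes (1.603%). The hosts were Nop56 with 5 snoRNAs, Nop58 with 4, Ncl, Wdr43 and Gnl3 with 3 each, Tsr1 with 2 and Dkc1 with 1. All 7 were among the members that rose (median log2 change 0.56), and of the other 33 members 15 rose (median 0.34). The mature snoRNAs carry no poly(A) tail and were not measured by these values. The difference between hosts and non-hosts was not tested.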

How the data were processed

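The authors deposited, per the file headers, a table of DESeq2-normalized counts for 19826 mouse genes in 4 WT and 4 Pdpk1 KO Treg libraries, a signal in which each read count is divided by a library's size factor. Trimmomatic 0.39, STAR 2.7.6a, SAMtools 1.11, featureCounts (Subread 2.0.1), DESeq2 1.21 and the build GRCm38 are listed in the submitters' processing notes, without roles. Dividing by the value of 1 read gave whole reads for 100% of values in every library (within 0.001), 17448095 to 26299577 reads each. Symbols and positions came from GENCODE M21 for 19785 of 19826 gene identifiers, and promoters from RefSeq GRCm38.p6.

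Genes with a normalized count of 10 or more in at least 4 of 8 libraries were tested (13847; 5979 left out). The test was limma 3.58.1 (R 4.3.3; lmFit, eBayes with trend) on log2(normalized count + 1), two-sided, with Benjamini-Hochberg adjustment over all tested genes and a threshold of 0.05. Fold changes are on that log2 scale, which understates changes of low genes. The script was tested on simulated data. Alternatives were pseudocounts of 0.5 and 5, other filters, quantile normalization, TMM factors, edgeR 4.0.16 and DESeq2 1.42.0 on the recovered reads, a replicate block, each library left out, marker means as covariates, and leaving out 3 libraries. The members, roles and lists were chosen with earlier results of these data known. All members are named; per-library values are given for the 2 largest and the smallest absolute changes in each role, and of each pathway list up to 3 called genes are named, in order of adjusted p, with Pdpk1, Foxp3 and Myc. Mrps5, the marker genes, the 4 promoters, the subunit ratios and the host genes in the closing section, were named after their values were seen. The counts of other pathway genes under the alternatives were added after seeing the data.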

Additional observations from a re-analysis of the deposited data

Results flagged for a closer look

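In 3 of 80 groups of 4 libraries (40 members in 2 groups), 1 library stood apart from the other 3 by more than Dixon's 95% limit; chance flags about 1 group in 20. Fbl measured 6337 normalized counts in Pdpk1 KO replicate 2, against 4793, 4977 and 4994 in the other 3. Nop56 measured 3607.2 in Pdpk1 KO replicate 3, against 3904, 3932 and 3951. Nip7 measured 1014.9 in Pdpk1 KO replicate 1, against 1235, 1254 and 1254.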

How the results depend on the processing

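With 4 libraries per group, the smallest member change past the threshold was that of Ddx21 (log2 0.34), and a missed threshold does not show that a gene was unchanged. The count of members higher in Pdpk1 KO (22) was 20 to 25 under both pseudocounts, both filters, quantile normalization, TMM factors, edgeR and DESeq2. Over all tested genes, 2.96 to 6.14% were higher under these alternatives. Quantile normalization lost Heatr1 and Ncl, no filter lost Heatr1, and edgeR lost Tsr1. No member was lower under any alternative run, and the members' median ranged from 0.32 to 0.50.

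The count of members was 4 with the macrophage marker covariate, 10 with the cell cycle covariate and 2 when the 3 libraries with most macrophage signal were left out, and the median was 0.50 with the cell cycle covariate. For the 120 other pathway genes (19 higher) the counts were 3, 5 and 2 in that order. Over all tested genes, the 611 higher and 700 lower became 202 and 261, 239 and 225, and 167 and 305 in the same order. Estimates that changed sign were Bop1 (-0.045) and Nip7 (-0.021) with the macrophage covariate, Nip7 (-0.10), Rrp9 (-0.013) and Pdpk1 (0.26) with the cell cycle covariate, Bms1 (-0.047) without the 3 libraries, and Foxp3 without Pdpk1 KO replicate 1 (-0.0092, the lowest of -0.0092 to 0.17 over the fits without a library); none had passed the test, and the cause was not tested.

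Leaving out single libraries gave 15 to 21 members higher and a median of 0.32 (without Pdpk1 KO replicate 2) to 0.39. For the other pathway genes it gave 8 to 18 higher. Over all tested genes, 2.81 to 4.25% were higher in these fits, against 4.41% with all 8 libraries.

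The labels number replicates 1 to 4 in both groups without saying what a number shares. Deviations of same-numbered libraries correlated at 0.217, 0.0921, 0.0481 and 0.113, and those of differently numbered libraries at -0.156 to 0.109. WT replicates 1, 2 and 4 correlated best with the Pdpk1 KO library of their own number, and WT replicate 3 with Pdpk1 KO replicate 2. The main test did not use the replicate number. With the replicate number as a block, 27 members were higher and 0 lower; the other pathway genes gave 39 higher and 1 lower, cytosolic ribosomal proteins 72 higher (19 without the block), mitochondrial ones 4 (1 without it), and all tested genes 1243 and 1292.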

Other observations

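Genes outside the 40 members that hold a snoRNA on their own strand were also looked at. Of 215 such genes tested, 31 were higher and 9 lower in Pdpk1 KO, with a median log2 change of 0.19. Of all tested genes, 4.41% were higher and 5.06% lower. The 29 on the list of cytosolic ribosomal proteins gave 10 higher and 0 lower (median 0.48), and the other 186 gave 21 higher and 9 lower (median 0.13). Rps3a1, a ribosomal protein gene that is not on that list, is among the 186 and was higher (log2 0.52, limma adjusted p = 0.0387). Gas5, a non-coding RNA gene that holds 10 snoRNAs, rose from 4001 ± 390 to 6426 ± 577 normalized counts (SD, n = 4; limma adjusted p = 0.000432). St3gal2, a sialyltransferase gene with 1 snoRNA, fell from 1456 ± 103 to 909 ± 77.9 (adjusted p = 0.000646).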
